A study of Mus musculus with 21 samples.

Results

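Red cell precursors of the mouse line MEDEP were compared at 48 h and 36 h of differentiation, a late step of their maturation. The comparison rests on 6 of the 21 libraries of the study, 3 at each time, chosen by their time labels alone. MEDEP cells are immortal erythroid progenitors made from embryonic stem cells of the mouse, and all libraries came from 1 line, BRC5. No genotype or added allele is given in the labels, and the cells of the 2 times compared differed in time alone. Another 3 libraries of the study, at 12 h with succinyl acetone, an inhibitor of heme synthesis, enter the fit for its estimate of the spread and no comparison. All cells had grown with stem cell factor and the glucocorticoid dexamethasone, which were withdrawn at 0 h when 4 U/ml erythropoietin (Epo), the hormone of red cell production, was given. Polyadenylated RNA was sequenced with strand-specific libraries. The replicates are described as biological, but the labels do not say how they were kept apart, so p-values measure the spread between these libraries, which may be technical in part.

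Late erythroblasts fill with hemoglobin, leave the cell cycle, shrink and condense the nucleus before it is expelled. The transcripts of ribosomes, mitochondria and lipid synthesis are lost along the way, while globin, iron and clearance genes stay active. Type I interferons are secreted antiviral signals that act through the receptors Ifnar1 and Ifnar2, the kinases Jak1 and Tyk2 and transcription factors such as Stat2 and Irf9, which bind an interferon response element in their target genes.

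Total estimated counts were 16.7 to 33.1 M at 36 h and 22.3 to 35.9 M at 48 h, and 12360 of 22483 genes passed the filter on low counts and were tested. All levels are counts-per-million (CPM) of the library size scaled by TMM, which sets the middle of the genes equal between libraries. Of 11 erythroid markers in the table, all were tested, and 6 were called higher and 3 lower at 48 h. Their summed level was 259643 to 305608 CPM at 36 h and 404794 to 452519 CPM at 48 h. Most of that sum came from the globins Hba-a1, Hbb-bs and Hbb-bt. Hba-a1, summed here without its paralog Hba-a2, had 126083 CPM in 48 h replicate 3 and 51488 and 56570 CPM in the other 48 h libraries. Markers of macrophages, neutrophils, mast cells, lymphocytes, endothelium and pluripotent cells summed to at most 16.7 CPM per list and library. Some of these low sums were higher at 48 h without overlap: macrophage markers went from 7.77 to 11.1 CPM at 36 h to 15.0 to 16.2 CPM (2 of 5 tested called higher, and 2 of 15 at 0 counts in all 6 libraries), mast cell markers from 8.14 to 10.7 to 12.6 to 16.7 CPM (1 of 6, and 3 of 10 at 0), and neutrophil markers from 2.17 to 3.47 to 3.48 to 7.12 CPM (1 of 3, and 7 of 11 at 0). Their part in the changes below was not tested. Megakaryocyte markers summed to 1198 to 1566 CPM at 36 h and 1737 to 1961 CPM at 48 h, with 4 of 13 at 0 counts in all 6 libraries. Of 5 tested, 2 were called higher and 1 lower. Most of the sum was Itga2b, with 1035 to 1335 CPM at 36 h and 1495 to 1629 CPM at 48 h. Gp9 went the other way, from 33.0 to 45.1 CPM at 36 h to 13.5 to 25.5 CPM at 48 h.

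The 36 h library of replicate 1 stood apart. All 23 stromal and fibroblast markers that were under 1 CPM at 24 h had counts in it, and they summed to 61.9 CPM, against 1.49 and 2.17 CPM in the other 36 h libraries and 3.32 to 4.00 CPM at 48 h. Of these, 12 were at 0 counts in both other 36 h libraries and all 48 h libraries. Fn1, the matrix protein fibronectin, had 10.4 CPM in that library and 0 counts in the other 5, and the growth factor Igf2 had 16.1 CPM against at most 0.144 CPM. Both were called lower at 48 h with all libraries and lost their call without this one, so neither is read below as a change of the erythroid cells. The counts of called genes below come from the fit to all libraries and still include such genes. In total 738 calls were lost or changed sign without this library. The number of called genes went from 6153 to 5615 without it, to 5340 without 36 h replicate 3 and to 5516 without 48 h replicate 1. It was 5623 without 48 h replicate 2, 6095 without 36 h replicate 2 and 6088 without 48 h replicate 3. How many of the 738 go back to stromal transcripts was not tested. The 12 largest rises and 12 largest falls were chosen among genes that kept their call and direction without 36 h replicate 1. Replicate 1 at 24 h, which enters the comparison with the step before, had counts for 21 of the 23 stromal markers. They summed to 1.27 CPM there. The other 24 h libraries, replicates 2 and 3, had counts for 5 each, with sums of 0.633 and 1.12 CPM. Total counts were 37.5, 33.5 and 23.5 M in 24 h replicates 1, 2 and 3.

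**Figure D1:**
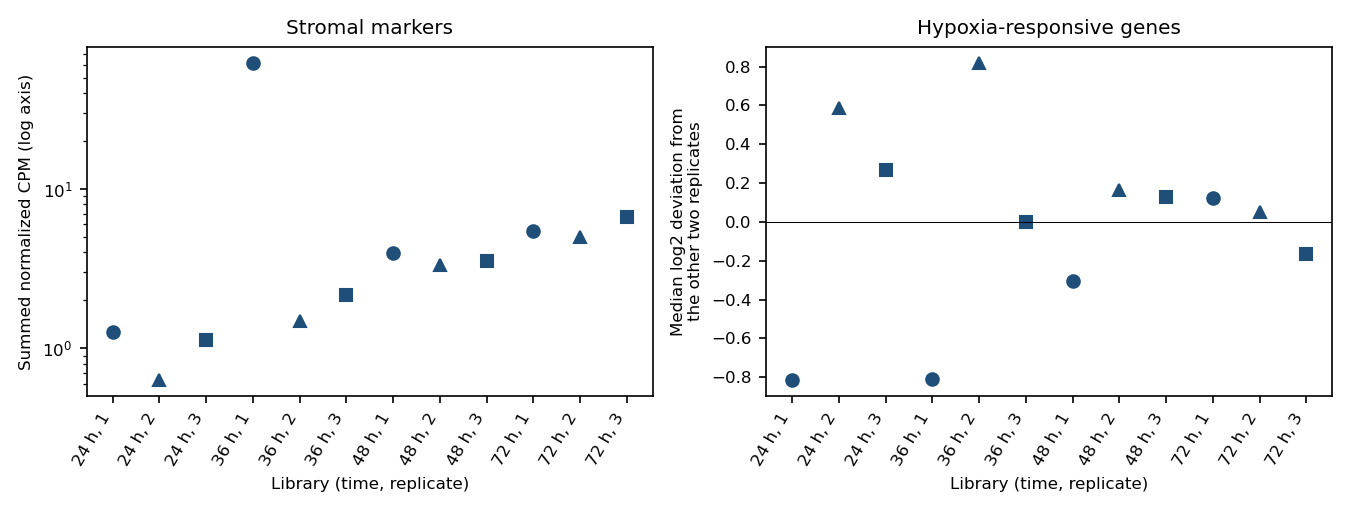
Left, summed level of 23 stromal markers per library in normalized CPM on a log axis; right, median log2 deviation of 35 hypoxia-responsive genes from the other 2 replicates of the same time. Each point is 1 library at 24, 36, 48 or 72 h; 36 h replicate 1 reaches 61.9 CPM on the left and -0.81 on the right.

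By edgeR's quasi-likelihood test with Benjamini-Hochberg adjustment over all genes, 6153 genes changed (49.8%), 2476 of them upward (20.0%) and 3677 downward (29.7%). A fold of at least 2 left 708 higher (5.73%) and 929 lower (7.52%). Without 36 h replicate 1, 5615 genes were called and 5415 of these were called with the same sign in the full comparison. The split between rises and falls depends on the scale. The 10 most counted genes went from 29.6 ± 0.625% to 36.3 ± 1.48% of all counts (mean ± SD, n = 3). All tested genes together had a median log2 change of -0.07 on the TMM scale, 0.06 with DESeq2's size factors and -0.47 in transcripts-per-million (TPM). The size factors gave 3197 genes higher and 2961 lower, and limma on log2(TPM + 1) gave 246 higher (2.58%) and 5954 lower (62.5%) of 9525. Leaving the globins out of the library sizes gave 2472 higher and 3677 lower, so the split on the TMM scale hardly moved. The counts of each list below are to be read against these shares of all genes. The steps on either side, 24 to 36 h and 48 to 72 h, share the 36 h or the 48 h libraries with this one, and the change in each gene was tested against both. Of all genes 2184 changed more positively than in the step before (17.7%) and 3049 more negatively (24.7%), but in TPM these were 7489 and 362. Over the 9502 genes tested on both scales, the median in TPM was -1.84 from 24 to 36 h, and the median difference between the steps was 1.31. Against the step after, 2255 were more positive (18.2%) and 1410 more negative (11.4%), and in TPM 537 and 301. A rise or fall below, and a difference between steps, is therefore measured against the middle of all tested genes, on the TMM scale, and fewer cells that make a transcript and less of it per cell cannot be told apart.

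**Figure D2:**
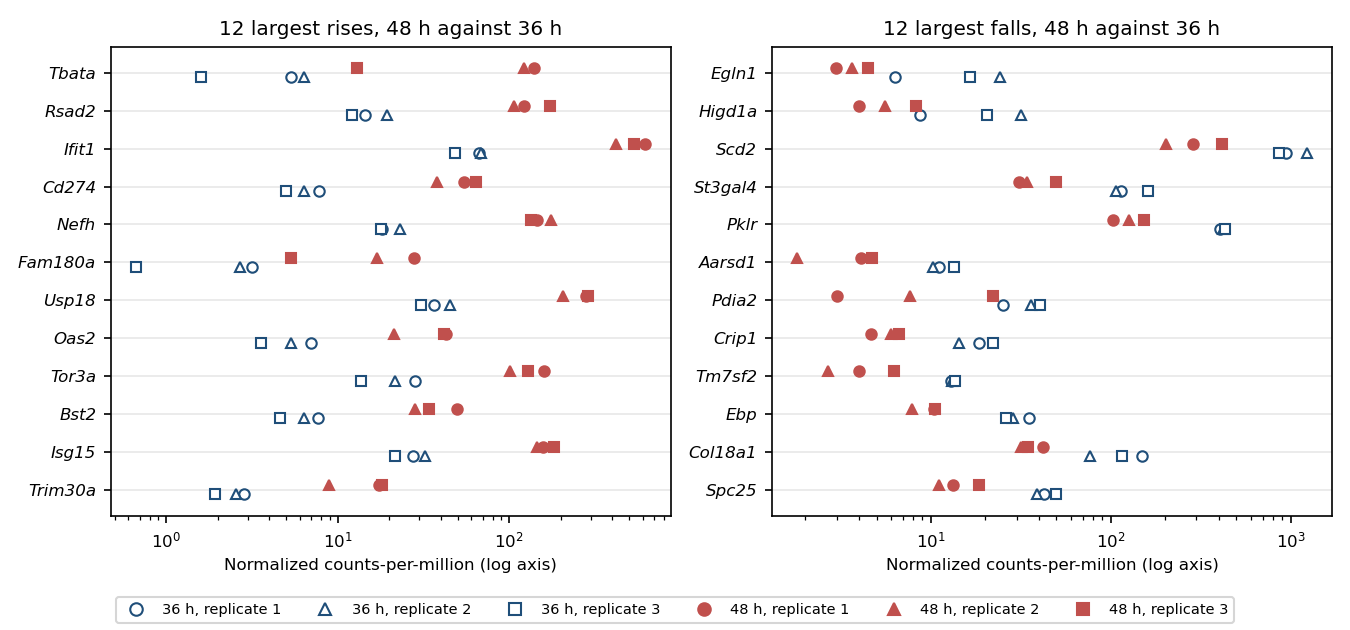
Normalized CPM on a log axis of the 12 largest rises (left) and 12 largest falls (right), with 36 h in open and 48 h in filled symbols and 1 symbol shape per replicate. The replicates of both times do not overlap for any gene shown, which the rule of choice required; Tbata in 48 h replicate 3 is at 12.9 CPM, well under the other 2.

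Genes of the antiviral interferon response made up most of the largest rises. Of 62 tested interferon-stimulated genes 58 rose and none fell, against 20.0% of all genes called higher, with a median log2 change of 1.91 against -0.07 for all genes. The count was the same with DESeq2's size factors, and in TPM 30 of 41 rose and none fell (median 0.85). For 60 of the 62 all 48 h libraries stood above all 36 h libraries, against 20.8% of all genes. The 4 that were not called were Gbp7, Ifi27l2a, Mx1 and Slfn8, with adjusted p of 0.0992, 0.254, 0.248 and 0.811. A further 7 listed genes were not tested for lack of counts, among them Ifitm3 and Zbp1.

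Rsad2, which makes a chain-terminating nucleotide against viruses, had 14.5, 19.3 and 12.1 CPM at 36 h and 122, 107 and 174 CPM at 48 h. Both times were apart, which the rule of choice for the largest rises required. The log2 change was 3.11 ± 0.27 (SE, n = 3 against 3, adjusted p = 3.56e-08, edgeR, ENSMUSG00000020641.16, GRCm38 chromosome 12, 26442746 to 26456452, minus strand). Ifit1, which binds RNA that lacks the host cap, had 67.1, 68.8 and 48.6 CPM at 36 h and 623, 419 and 536 CPM at 48 h and rose by 3.09 ± 0.25 (adjusted p = 2.11e-08; ENSMUSG00000034459.8, GRCm38 chromosome 19, 34640871 to 34650009, plus strand). Its mean was 0.401 CPM at 24 h and 3229.7 CPM at 72 h, so the 48 h level lay within a longer climb. Isg15, a ubiquitin-like protein, had 27.4, 32.2 and 21.6 CPM at 36 h and 157, 146 and 183 CPM at 48 h and rose by 2.57 ± 0.27 (adjusted p = 2.47e-07; ENSMUSG00000035692.6, GRCm38 chromosome 4, 156199424 to 156200818, minus strand). Usp18, which removes Isg15 from proteins and dampens the interferon receptor, rose by 2.78 ± 0.20. The RNA-activated synthetase Oas2 rose by 2.71 ± 0.31, the membrane tether Bst2 by 2.58 ± 0.20, Trim30a by 2.57 ± 0.32 and the ATPase Tor3a by 2.60 ± 0.22. Among low-count members, Ifit3 had 0.713, 0.337 and 0.0836 CPM at 36 h and 7.43, 3.32 and 4.88 CPM at 48 h and Ifit3b had 0.454, 0.289 and 0.669 CPM at 36 h and 5.79, 2.13 and 2.48 CPM at 48 h. The lowest 48 h library of each still stood above the highest 36 h library. In TPM, a unit per transcript length, the most abundant members at 48 h were 202 ± 73.1 TPM for Ube2l6, the enzyme that conjugates Isg15, 141 ± 34.0 TPM for Oasl2 and 137 ± 50.7 TPM for the GTPase Irgm1 (mean ± SD, n = 3).

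The promoters of members with the interferon response element are shown because most of the list shares it. It was searched on both strands as GAAA, any 2 bases and GAAA again, where overlapping matches count separately, in RefSeq windows of 250 bases before to 50 bases after the gene start (GRCm38.p6). It was in 26 of 47 interferon-stimulated genes with a window (55.3%), against 3.92% of 9552 tested genes and 3.99% of all 27025 genes with one. The 26 members that hold it had a median log2 change of 2.18, and the 21 without it had 1.60. Of these, 24 and 21 were called higher. The lines below run 5′ to 3′ on the gene's strand, with matches on either strand in capitals. They are chr4:156200860-156200959 (minus strand) for Isg15, chr19:34640729-34640828 (plus strand) for Ifit1, chr19:34583332-34583431 (plus strand) for Ifit3 and chr12:26456548-26456647 (minus strand) for Rsad2.
Isg15: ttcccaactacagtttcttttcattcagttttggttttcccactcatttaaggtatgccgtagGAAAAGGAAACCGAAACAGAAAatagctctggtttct
Ifit1: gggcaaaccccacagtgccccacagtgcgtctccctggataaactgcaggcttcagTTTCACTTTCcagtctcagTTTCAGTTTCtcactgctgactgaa
Ifit3: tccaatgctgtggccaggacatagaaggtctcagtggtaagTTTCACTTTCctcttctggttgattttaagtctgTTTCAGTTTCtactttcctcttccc
Rsad2: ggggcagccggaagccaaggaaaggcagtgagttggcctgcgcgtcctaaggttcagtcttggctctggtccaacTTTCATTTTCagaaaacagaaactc
Isg15 holds 3 overlapping matches that begin 78, 72 and 66 bases before the start, Ifit1 and Ifit3 hold 2 each, and Rsad2 holds 1 at 120 bases before it. A match describes letters only, and binding was not measured.

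Most regulators of the interferon response were higher as well. Of 15 tested interferon regulators and receptors 10 rose and 1 fell, against 20.0% and 29.7% of all genes (median 0.94; in TPM 6 rose and 3 fell of 15, median 0.23). Irf7, the factor that amplifies interferon production, had 123, 158 and 109 CPM at 36 h and 603, 498 and 689 CPM at 48 h and rose by 2.20 ± 0.19 (adjusted p = 2.89e-08). Irf1 rose by 2.06 ± 0.24 and Irf9, the partner of Stat2, by 1.93 ± 0.11. The receptor kinase Tyk2 was the one called lower, at -0.77 ± 0.19. Transcripts of the listed interferon genes themselves were close to nothing. Ifnb1 had 3 counts over the 36 h libraries and 11 over the 48 h libraries. In the same order Ifna4 had 2 and 4, Ifnl3 had 0 and 1, and Ifng had 0 at both times. None of these passed the filter on low counts, and sums this small are uncertain from counting alone. Interferon genes not on the list were not looked at. Of 16 nucleic acid sensors and their limiters 7 rose and 4 fell (median 0.46; in TPM 4 rose and 5 fell of 14, median -0.27). The RNA helicase Ddx58 (RIG-I) rose by 2.48 ± 0.20 and Ifih1 (MDA5) by 1.72 ± 0.19, while Rnaseh2b and Rnaseh2c, subunits of the enzyme that cuts RNA out of RNA-DNA hybrids, changed by -1.22 and -1.09. The checkpoint ligand Cd274 (PD-L1), not on these lists, rose by 3.02 ± 0.24, from 5.01 to 7.78 CPM at 36 h to 37.8 to 63.8 CPM at 48 h.

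The rise of interferon genes was part of a longer climb. The median log2 change of the 62 genes was 2.59 from 24 to 36 h, 1.91 from 36 to 48 h and 2.23 from 48 to 72 h. In TPM, over 41 genes, these were 0.24, 0.85 and 1.39. Compared with the step before, the change was smaller for 23 genes and larger for 6 (median difference -0.94), while in TPM it was smaller for 5 and larger for 13 (median difference 0.55, where all genes had 1.31). Compared with the longer step after it, 9 rose less and 6 more. Ifit1, for instance, rose by less than from 24 to 36 h, with a difference of -4.21 (adjusted p = 1.05e-06), and Bst2 by more, with a difference of 1.64 (adjusted p = 0.00134). The 48 h library of replicate 2 was lower on this list, at -0.44 from the other 2 replicates, against 0.08 and 0.31 for the others.

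**Figure D3:**
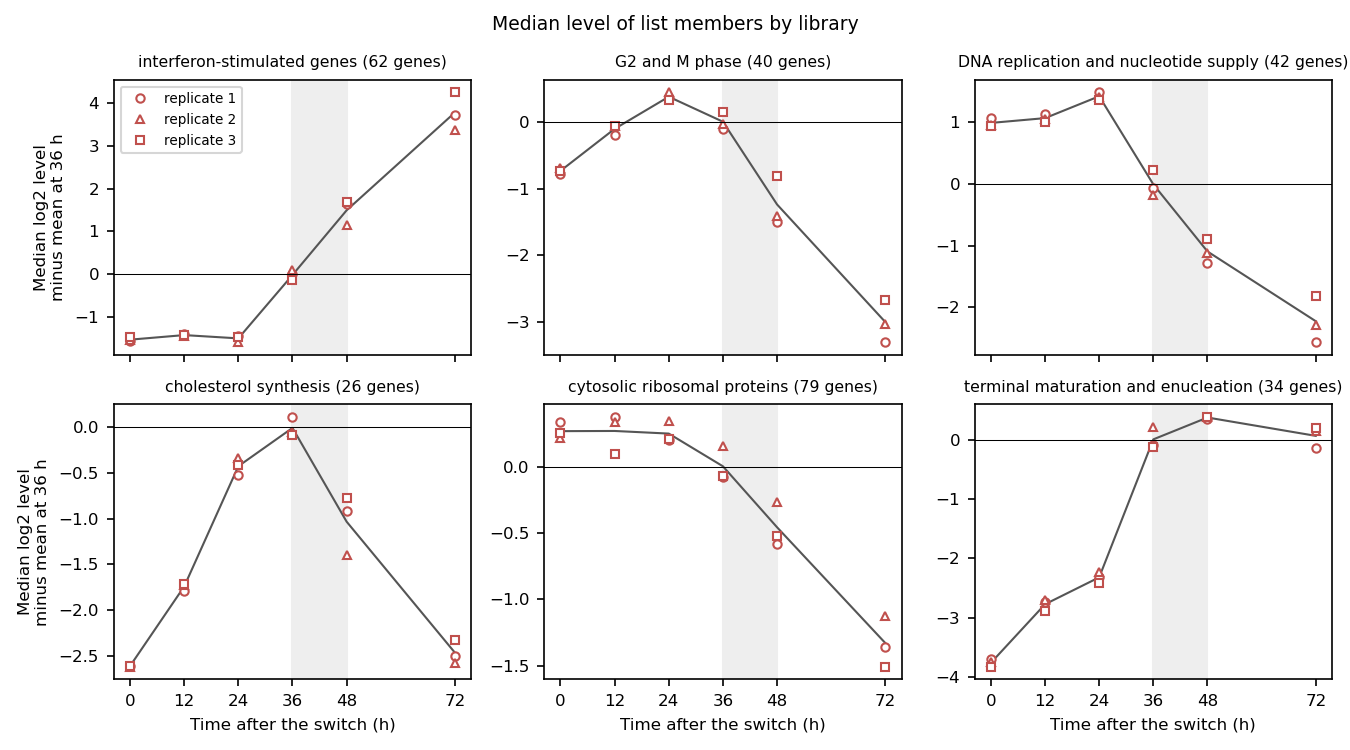
Median over the tested members of 6 lists of log2(CPM + 0.5) minus the gene's mean at 36 h, by time after the switch in h, with 1 point per library and a line through the means. The shaded step is 36 to 48 h; interferon-stimulated genes climb through it, cholesterol synthesis is highest at 36 h on this scale (in TPM its median was -1.45 from 24 to 36 h), and DNA replication and ribosomal proteins continue a fall.

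Genes of cell division fell. Of 40 tested genes of the G2 and M phases 37 fell and 2 rose, against 29.7% and 20.0% of all genes (median -1.23; in TPM none rose and 38 fell of 40, median -1.69). Aurkb, a kinase of the chromosome passenger complex, had 41.9, 39.1 and 50.9 CPM at 36 h and 13.8, 12.5 and 19.1 CPM at 48 h. The 2 times did not overlap, and the log2 change was -1.54 ± 0.14 (adjusted p = 4.97e-08; ENSMUSG00000020897.12, GRCm38 chromosome 11, 69045647 to 69051664, plus strand). The spindle checkpoint kinase Bub1 changed by -1.52 ± 0.20, the condensin subunit Ncapg by -1.47 ± 0.17, and Spc25 of the kinetochore, the largest fall of a division gene named here, by -1.62 ± 0.15. Top2a, which untangles chromosomes, had 652, 602 and 821 CPM at 36 h and 214, 208 and 349.9 CPM at 48 h and changed by -1.43 ± 0.18 (adjusted p = 1.67e-06). Mki67, the proliferation marker that coats mitotic chromosomes, had 4110.3, 4033 and 4079.6 CPM at 36 h and 1640.4, 1907 and 2928 CPM at 48 h and changed by -0.92 ± 0.19 (adjusted p = 0.000532). In both, 48 h replicate 3 was the highest of its group. The 2 that rose were Pttg1 (securin) at 0.56 ± 0.14 and Incenp, the scaffold of the passenger complex, at 0.60 ± 0.19, which was -0.07 in TPM. Incenp was not called without 36 h replicate 1 (adjusted p = 0.0733, edgeR) or 48 h replicate 2 (adjusted p = 0.083). For 28 of the 40 the change was more negative than in the step before and for none less (median difference -0.84), while in TPM it was more positive for 15 and more negative for none (median difference 0.76, where all genes had 1.31). The median from 24 to 36 h was -0.39, and from 48 to 72 h it was -1.72.

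The promoters of these genes often hold CCAAT, the box of the factor NF-Y, and TTTGAA or TTCGAA, the cell cycle homology region bound by complexes that switch genes on and off with the cycle. Searched on both strands, with no overlap possible between the 2 motifs in the lines shown, CCAAT was in 26 of 33 members with a window (78.8%), against 43.5% of tested genes. The homology region was in 25 of 33 (75.8%), against 17.3%. All 25 of these were called lower, and of the 8 without it 6 were. Stretches of 100 bases of 3 members named here show both, with matches in capitals: chr11:99024192-99024291 (minus strand) for Top2a, chr2:164769821-164769920 (plus strand) for Ube2c, and chr7:135716457-135716556 (minus strand) for Mki67.
Top2a: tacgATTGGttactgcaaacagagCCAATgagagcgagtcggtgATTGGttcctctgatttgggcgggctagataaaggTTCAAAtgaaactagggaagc
Ube2c: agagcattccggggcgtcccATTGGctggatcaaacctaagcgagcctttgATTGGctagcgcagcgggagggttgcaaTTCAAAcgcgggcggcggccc
Mki67: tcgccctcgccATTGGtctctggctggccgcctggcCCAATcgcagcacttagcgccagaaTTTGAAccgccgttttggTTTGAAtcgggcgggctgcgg

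DNA replication and the passage into S phase fell too. Of 42 genes of DNA replication and nucleotide supply 39 fell and none rose (median -1.13; in TPM none rose and 41 fell of 42, median -1.38). Tk1, which supplies thymidine phosphate, had 42.0, 42.5 and 60.8 CPM at 36 h and 13.9, 14.5 and 20.8 CPM at 48 h and changed by -1.57 ± 0.17 (adjusted p = 3.11e-07; ENSMUSG00000025574.13, GRCm38 chromosome 11, 117815526 to 117826092, minus strand). Uhrf1, which guides maintenance of DNA methylation, changed by -1.52 ± 0.17, and Gins1 and Gins2 of the replicative helicase by -1.46 ± 0.19 and -1.46 ± 0.16. Mcm2, of the same helicase, had 141, 127 and 161 CPM at 36 h and 63.3, 65.2 and 84.7 CPM at 48 h and changed by -1.01 ± 0.11. Here the fall had started earlier: the median was -1.46 from 24 to 36 h. For 17 genes the present change was less negative than that, for none more (median difference 0.36). Without 36 h replicate 1 these were 7. In TPM the change was more positive than in the step before for all 42 (median difference 2.02), as it was for 7489 of all 9525 genes. Of 22 G1 cyclins, CDKs and E2F factors 16 fell and none rose (median -1.21; in TPM none rose and 21 fell of 21, median -1.18). Cyclin E (Ccne1) changed by -1.50 ± 0.16, its kinase Cdk2 by -1.46 ± 0.15, and E2f8 and E2f7 by -1.51 ± 0.15 and -1.34 ± 0.18. Ccnd3, the D cyclin of erythroid cells, had 227, 213 and 290.1 CPM at 36 h and 106, 128 and 149.7 CPM at 48 h and changed by -0.93 ± 0.12 (adjusted p = 1.79e-06), less than from 24 to 36 h, with a difference of 1.14. The CDK inhibitors went both ways: Cdkn1b (p27) rose by 0.50 ± 0.12 (-0.11 in TPM), and 3 of 7 fell, namely Cdkn2c at -0.75 ± 0.10, Cdkn2d at -0.51 ± 0.15 and Cdkn1c at -2.42 ± 0.59. Cdkn1c, named after its value was seen, was at -1.07 without 36 h replicate 1. The number that rose was 2 without 36 h replicate 1 and 3 without 48 h replicate 3, and none in TPM.

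The nuclear envelope, pore and transport list had 31 of 45 genes lower and 11 higher, against 29.7% and 20.0% of all genes (median -0.79). In TPM none rose and 35 fell of 45 (median -0.93). Without 36 h replicate 1, or without 36 h replicate 3, 7 were higher. The pore protein Nup210 changed by -1.44 ± 0.15, Banf1, which tethers chromatin to the envelope, by -1.40 ± 0.11, and the lamina-associated Tmpo by -1.29 ± 0.14. Nup62 of the central channel rose by 0.77 ± 0.12. Banf1 had 29.4, 27.6 and 31.2 CPM at 36 h and 9.78, 11.0 and 13.0 CPM at 48 h, with no overlap.

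**Figure D4:**
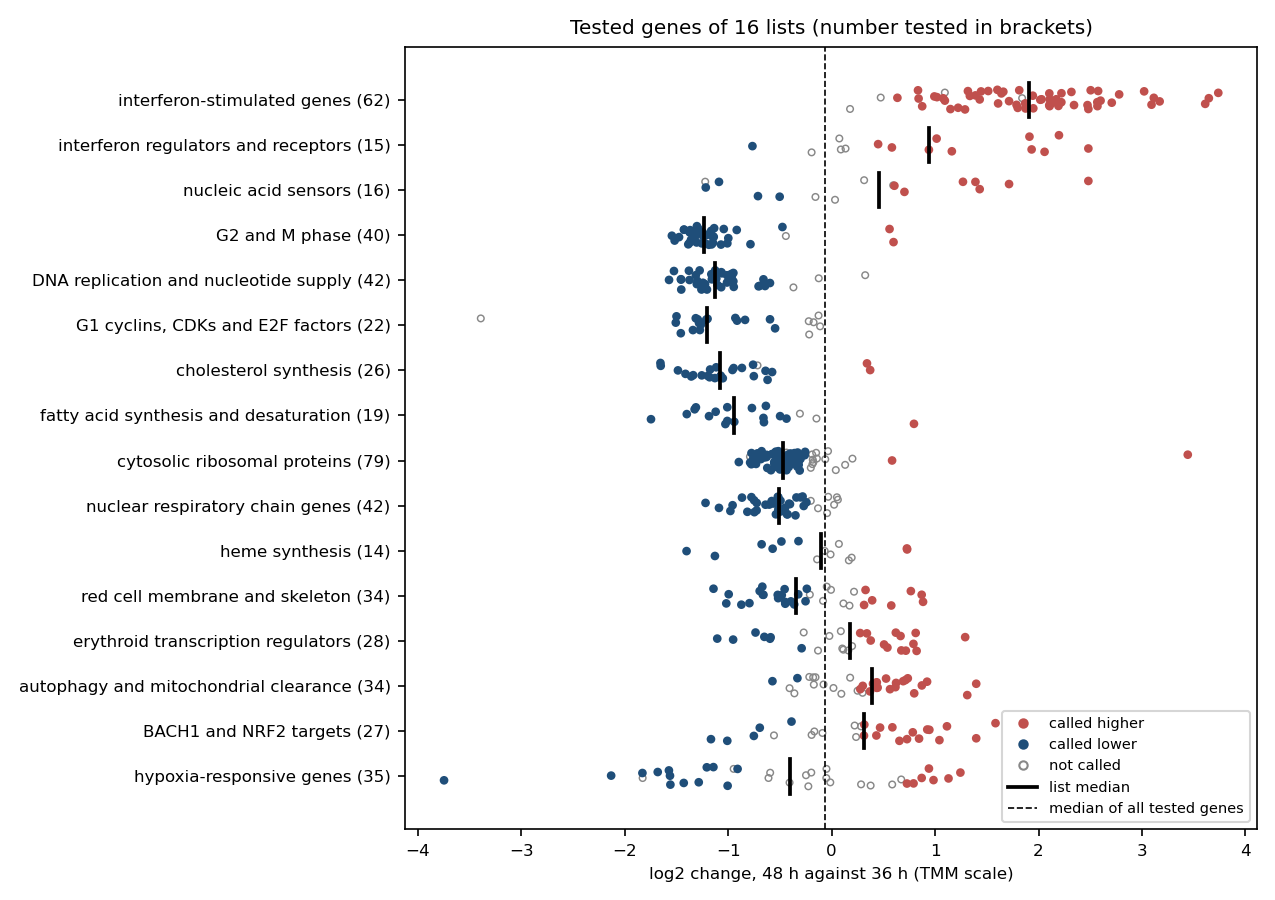
Change from 36 to 48 h, as log2 after TMM scaling, for the tested genes of 16 lists, 1 point per gene, filled where called (adjusted p at most 0.05). The bar is the list's median and the dashed line the median of all tested genes; interferon-stimulated genes lie to the right with a median of 1.91 and the division, replication and cholesterol lists to the left with medians of -1.23, -1.13 and -1.08.

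Cholesterol synthesis genes fell at this step, after a rise that was seen on the TMM scale and not in TPM. Of 26 genes 23 fell and 2 rose (median -1.08; in TPM none rose and 24 fell of 25, median -1.53), whereas from 24 to 36 h 15 had risen and 5 had fallen, with a median of 0.41 (-1.45 in TPM, where all genes had -1.84). For 24 of the 26 the change was more negative than in the step before (median difference -1.31), while in TPM it was more positive for 6 and more negative for 1 (median difference 0.14, where all genes had 1.31). Ebp, a sterol isomerase, had 35.1, 28.8 and 26.3 CPM at 36 h and 10.4, 7.83 and 10.6 CPM at 48 h. The times did not overlap, which the rule of choice for the largest falls required. Its log2 change was -1.65 ± 0.12 (adjusted p = 4.77e-09, edgeR, ENSMUSG00000031168.14, GRCm38 chromosome X, 8185329 to 8193512, minus strand). The sterol reductases Tm7sf2 and Dhcr7 changed by -1.65 ± 0.18 and -1.49 ± 0.12, and the sterol carrier Stard4 by -1.41 ± 0.16. The 2 that rose were Insig1, which holds back the sterol sensor, at 0.37 ± 0.13, and Ggps1, of the branch to protein prenylation, at 0.34 ± 0.09; in TPM they were -0.31 and -0.39, and Insig1 was not called without 36 h replicate 3 (adjusted p = 0.123, edgeR) or 48 h replicate 1 (adjusted p = 0.133). CCAAT was in 17 of 18 cholesterol promoters with a window (94.4%), against 43.5% of tested genes. The sterol response element TCACNCCAC was in 1 of the 18 (5.56%), against 1.39% of tested genes. Of 19 genes of fatty acid synthesis 16 fell and 1 rose (median -0.94; in TPM none rose and 18 fell of 19, median -0.99). The desaturase Scd2 had 945, 1228 and 862 CPM at 36 h and 288, 203 and 415 CPM at 48 h and changed by -1.75 ± 0.21 (adjusted p = 1.12e-06; ENSMUSG00000025203.5, GRCm38 chromosome 19, 44293674 to 44306864, plus strand). Fasn, the fatty acid synthase, changed by -1.40 ± 0.14 and the elongase Elovl6 by -1.32 ± 0.16, while Acss2, which makes acetyl-CoA from acetate, rose by 0.80 ± 0.13.

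Transcripts for making protein and for respiration fell moderately. Of 79 cytosolic ribosomal proteins 62 were called lower and 2 higher, with a median of -0.47; with DESeq2's size factors 49 were lower and 4 higher, and the TPM median was -1.09. Rps25 changed by -0.90 ± 0.12 and Rps18 by -0.79 ± 0.10. Rps27 was called higher at 3.44 ± 0.82, but its libraries had 2.59, 4.19 and 1.09 CPM at 36 h and 18.2, 3.51 and 71.5 CPM at 48 h, so the times overlapped, and without 48 h replicate 3 it was at 1.98. It has near-identical copies among which reads can be split, and its value is uncertain. Rpl10 was the other, at 0.58 ± 0.12 and -0.02 in TPM. Of 35 ribosome biogenesis genes 21 fell and 1 rose (median -0.53; in TPM 1 rose and 32 fell of 35, median -0.66). The number that rose was 2 without 36 h replicate 3 or 48 h replicate 3, and 4 with DESeq2's size factors. The fall was less than in the step before, whose median was -1.58: for 28 genes the change was less negative, and for none more (median difference 1.11). In TPM it was more positive for all 35 (median difference 2.37), as it was for 7489 of all 9525 genes. Mybbp1a, which acts with RNA polymerase I, changed by -1.14 ± 0.15, and the one that rose on the TMM scale was Gnl3 (nucleostemin), at 1.20 ± 0.13 and with 21.8, 23.4 and 24.7 CPM at 36 h and 54.3, 57.9 and 47.3 CPM at 48 h. Of 42 nuclear respiratory chain genes 35 fell and none rose (median -0.51; in TPM none rose and 42 fell of 42, median -1.07). The complex I subunits Ndufs8 and Ndufv1 changed by -1.22 ± 0.12 and -1.09 ± 0.07. Of the 13 protein genes of the mitochondrial genome 5 fell and 1 rose, against 29.7% and 20.0% of all genes. Their median was -0.19, against -0.07 for all genes, and in TPM none rose and 11 fell (median -0.82). Among them mt-Nd3 changed by -1.12 ± 0.12, and mt-Co1 rose by 0.25 ± 0.09 but was -0.39 in TPM. Without 36 h replicate 1, or without replicate 3, mt-Co1 was not called (adjusted p = 0.0503 and 0.145, edgeR), nor was it without 48 h replicate 2 (adjusted p = 0.139), and 3 of the 13 fell without 36 h replicate 1 or 48 h replicate 3. The 13 genes together made up 3.27 ± 0.254% of counts at 36 h and 2.68 ± 0.0827% at 48 h (exact permutation test, 2-sided p = 0.1, the smallest that 3 against 3 allows).

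The summed globins rose, by less than in the step before. The alpha globins Hba-a1 and Hba-a2, summed, had 143383, 153766 and 133879 CPM at 36 h and 210313, 231070 and 192924 CPM at 48 h. The 2 times did not overlap, and the log2 change was 0.56 ± 0.16 (SE, n = 3 against 3, adjusted p = 0.00779). The adult beta globins Hbb-bs and Hbb-bt, summed, changed by 0.64 ± 0.21 (adjusted p = 0.0154), from 189807 ± 17038 to 296364 ± 24174 CPM (mean ± SD, n = 3). Both sums were chosen after the data were seen. Both rises were smaller than from 24 to 36 h, with differences of -2.57 (adjusted p = 2.5e-07) and -2.69 (adjusted p = 3.69e-06, edgeR). Singly the paralogs cannot be read: 48 h replicate 3 gave Hba-a1 7.07% and Hba-a2 3.74% of counts, where 48 h replicate 1 gave 2.80% and 8.62%. Called singly, Hba-a1 changed by 1.01 ± 0.35, Hba-a2 by 0.35 ± 0.30 (adjusted p = 0.355; -0.35 in TPM), Hbb-bs by 0.67 ± 0.27 and Hbb-bt by 0.58 ± 0.21, and without 36 h replicate 1 none of the 4 was called. Without 48 h replicate 3, Hba-a1 was at 0.48 and Hba-a2 at 0.67. The summed beta globins lost their call without 36 h replicate 3 (adjusted p = 0.056, edgeR) or 48 h replicate 2 (adjusted p = 0.0508).

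**Figure D5:**
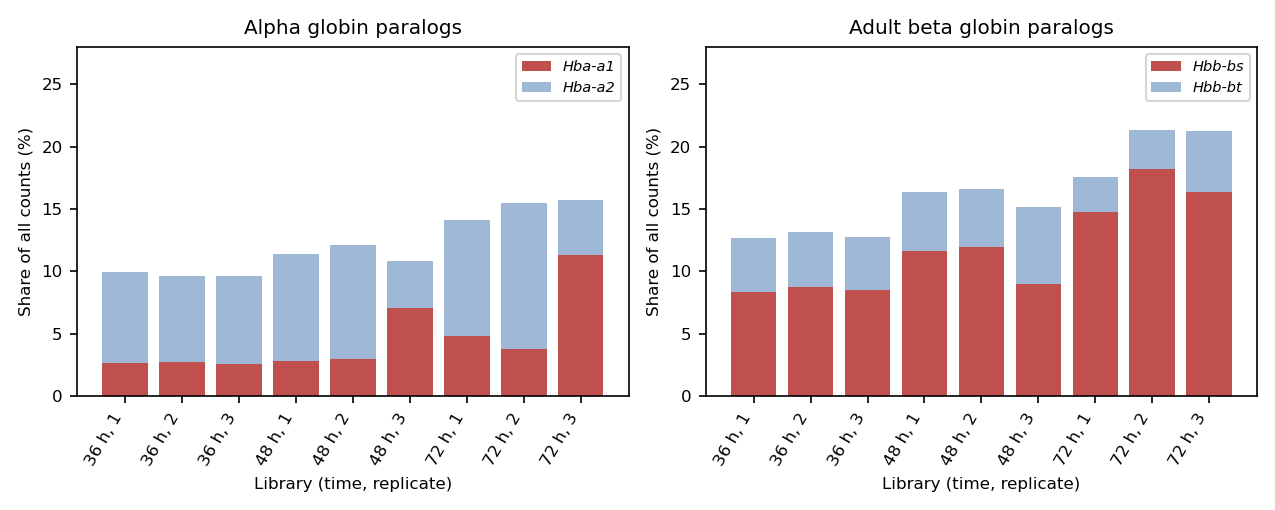
Share of all counts in percent taken by the 2 alpha (left) and 2 adult beta (right) globin paralogs, stacked, for the libraries of 36, 48 and 72 h. The sums rise with time, while the split between Hba-a1 and Hba-a2 in replicate 3 at 48 and 72 h is the reverse of the other libraries.

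Heme pathway genes moved in both directions. Of 14 genes 2 rose and 6 fell, against 20.0% and 29.7% of all genes (median -0.10). With DESeq2's size factors 4 rose and 6 fell (median 0.02), and in TPM none rose and 9 fell (median -0.67). Alas2, the erythroid enzyme that starts the pathway, had 8849, 10576 and 8525 CPM at 36 h and 15240.5, 16030.5 and 15029 CPM at 48 h and rose by 0.73 ± 0.15 (adjusted p = 0.00035), with 0.11 in TPM. Slc25a37, the mitochondrial iron importer, had 2549, 2915 and 3805 CPM at 36 h and 828, 1062 and 1618 CPM at 48 h and changed by -1.40 ± 0.21 (adjusted p = 1.61e-05; ENSMUSG00000034248.7, GRCm38 chromosome 14, 69241848 to 69285112, minus strand). Alad, the second enzyme, changed by -1.13 ± 0.15 and Cpox, a later one, by -0.68 ± 0.16, while Slc25a39 rose by 0.73 ± 0.11. For 10 of the 14 the change was more negative than in the step before and for none less (median difference -0.92), while in TPM it was more positive for 5 and more negative for 1 (median difference 0.49, where all genes had 1.31). Of 17 iron genes 6 were higher and 6 lower, against 20.0% and 29.7% of all genes, and in TPM 2 were higher and 9 lower of 16. Hmox1, which breaks down heme, had 221, 333 and 163 CPM at 36 h and 752, 798 and 602 CPM at 48 h and rose by 1.58 ± 0.29 (adjusted p = 0.000122; ENSMUSG00000005413.8, GRCm38 chromosome 8, 75093621 to 75100589, plus strand). The ferritin light chain Ftl1 rose by 1.11 ± 0.16 and the heme transporter Slc48a1 by 1.04 ± 0.13. Lower were the iron reductase Steap3 at -1.25 ± 0.13, the iron sensor Aco1 at -0.88 ± 0.10 and the transferrin receptor Tfrc at -0.61 ± 0.13, which had 7964, 9712 and 9668 CPM at 36 h and 5348, 5203 and 7377 CPM at 48 h.

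On the TMM scale more membrane genes of the red cell fell than rose, and more of its regulators rose than fell. Of 34 membrane and skeleton genes 20 fell and 7 rose, against 29.7% and 20.0% of all genes (median -0.34). In TPM none rose and 25 fell of 33 (median -0.93). From 24 to 36 h 23 had risen (median 0.73, and -1.33 in TPM). The adhesion molecules Icam4 and Cd44 changed by -1.14 ± 0.14 and -0.99 ± 0.16, the water channel Aqp1 by -1.02 ± 0.17 and the blood group protein Kel by -0.87 ± 0.14. Tmcc2 rose by 0.88 ± 0.17 and the tropomyosin Tpm1 by 0.77 ± 0.11. Slc4a1 (band 3) had 24147, 27459 and 23539.6 CPM at 36 h and 26759, 29053 and 28910.5 CPM at 48 h and was not called, at 0.17 ± 0.14 (adjusted p = 0.333) and -0.52 in TPM. Of 28 erythroid transcription regulators 13 rose and 7 fell, against 20.0% and 29.7% of all genes (median 0.18). In TPM 1 rose and 12 fell of 28 (median -0.38). Lyl1 had 107, 119 and 110.2 CPM at 36 h and 262, 297 and 265 CPM at 48 h and rose by 1.29 ± 0.11 (adjusted p = 2.11e-08, edgeR). The repressors Cbfa2t3 and Gfi1b rose by 0.82 ± 0.10 and 0.81 ± 0.11, and Gata2 by 0.79 ± 0.17. Gata1 rose by 0.34 ± 0.08, which was -0.37 in TPM. Ikzf1 changed by -1.11 ± 0.12, the globin switching repressor Bcl11a by -0.95 ± 0.12, Klf1 by -0.74 ± 0.10 and Sox6 by -0.65 ± 0.13.

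More genes of terminal maturation and of clearing organelles rose than fell on the TMM scale, and more fell than rose in TPM. Of all genes, 20.0% were called higher and 29.7% lower on the TMM scale (median -0.07). In TPM these shares were 2.58% and 62.5% (median -0.47), so the lists are to be read against each scale's own background. The 34 genes of terminal maturation included 19 that rose and 6 that fell (median 0.43). In TPM none rose and 13 fell of 34 (median -0.19). The median from 24 to 36 h had been 2.35. For 28 genes the change was smaller than in that step (median difference -1.78), and in TPM for 14, with 8 larger (median difference -0.30). Of all 9525 genes in TPM, 7489 changed more positively than in that step and 362 more negatively. Mxi1, an antagonist of Myc that acts in chromatin condensation, had 587, 762 and 533 CPM at 36 h and 1177, 1289.7 and 1260.1 CPM at 48 h and rose by 0.99 ± 0.15. Ypel3 rose by 0.96 ± 0.15, the kinase Pim1 by 0.91 ± 0.14 and the deacetylase Hdac5 by 0.90 ± 0.13. The formin Diaph3, which acts in cell division, changed by -1.27 ± 0.17 and Ube2c, a ubiquitin-conjugating enzyme of mitosis, by -1.19 ± 0.14. Xpo7, a nuclear exporter, rose by 0.32 ± 0.11 and was -0.32 in TPM; it was not called without 36 h replicate 1 (adjusted p = 0.0688, edgeR) or replicate 3 (adjusted p = 0.0782). Of 34 autophagy genes 20 rose and 2 fell (median 0.39; in TPM 2 rose and 12 fell of 34, median -0.26). The cargo receptor Sqstm1 (p62) had 1013, 1206 and 769.8 CPM at 36 h and 2828, 3049 and 2001 CPM at 48 h and rose by 1.40 ± 0.16 (adjusted p = 6.76e-07; ENSMUSG00000015837.15, GRCm38 chromosome 11, 50199366 to 50210827, minus strand). Atg14 rose by 1.31 ± 0.13 and Gabarap, which is joined to the autophagosome membrane, by 0.92 ± 0.12. Bnip3l (NIX), the receptor for mitochondrial clearance, was not called, at 0.30 ± 0.13 (adjusted p = 0.0528) and -0.36 in TPM, and it passed the threshold without 36 h replicate 2 (adjusted p = 0.0109, edgeR) or 48 h replicate 1 (adjusted p = 0.0417).

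Stress lists gave a mixed picture, to be read against 20.0% of all genes called higher and 29.7% called lower. Of 27 targets of BACH1 and NRF2, factors that answer heme and oxidants, 15 rose and 5 fell (median 0.32; in TPM 3 rose and 11 fell of 25, median -0.28), led by Hmox1, Sqstm1 and Ftl1. The pentose phosphate enzyme Tkt changed by -1.17 ± 0.08 and the peroxiredoxin Prdx1 by -0.75 ± 0.10. Of 33 genes of the ATF4 and amino acid response 15 rose and 7 fell (median 0.25; in TPM 3 rose and 12 fell of 30, median -0.15). Atf5 rose by 1.34 ± 0.19, Eif4ebp1, a brake on translation, by 1.25 ± 0.18 and Sesn2 by 1.13 ± 0.20, while Phgdh, of serine synthesis, changed by -1.40 ± 0.16 and Mthfd2 by -0.86 ± 0.11. Of 20 targets of Epo and STAT5 8 rose and 5 fell (median 0.13; in TPM 1 rose and 9 fell of 19, median -0.35); with DESeq2's size factors 3 fell. Socs1, a feedback inhibitor of cytokine receptors, had 3.96, 3.95 and 2.17 CPM at 36 h and 20.6, 12.2 and 8.88 CPM at 48 h and rose by 2.03 ± 0.31, and Podxl changed by -1.60 ± 0.18. The Epo receptor Epor rose by 0.51 ± 0.10 (-0.13 in TPM). Kit, the receptor of stem cell factor, was not called, at 0.32 ± 0.25 (adjusted p = 0.305; -0.17 in TPM), and was called at 0.57 without 48 h replicate 3. Myc, which drives growth, had 17.3, 19.5 and 18.6 CPM at 36 h and 33.9, 44.2 and 25.4 CPM at 48 h and rose by 0.90 ± 0.21 (adjusted p = 0.00129), after a change of -0.94 from 24 to 36 h; the difference between the steps was 1.85 (adjusted p = 0.000505).

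Genes that respond to hypoxia gave the 2 largest falls among the genes chosen by size, and on this list the replicates differed among themselves at 24 h and 36 h. Egln1, the oxygen sensor that marks HIF for degradation, had 6.36, 24.1 and 16.5 CPM at 36 h and 2.97, 3.63 and 4.48 CPM at 48 h and changed by -2.13 ± 0.40 (adjusted p = 0.000153; ENSMUSG00000031987.6, GRCm38 chromosome 8, 124908587 to 124949324, minus strand). Higd1a, a mitochondrial protein induced by HIF, had 8.69, 31.6 and 20.5 CPM at 36 h and 4.00, 5.58 and 8.24 CPM at 48 h and changed by -1.83 ± 0.39 (adjusted p = 0.000516). For both, 36 h replicate 1 was the lowest and replicate 2 the highest of the group. Without replicate 1 the changes were -2.51 and -2.19. Over the 35 tested genes of the list, 36 h replicates 1, 2 and 3 deviated from the other 2 of their time by a median of -0.81, 0.82 and 0.00, 24 h replicates by -0.81, 0.59 and 0.27, and 48 h replicates by -0.30, 0.17 and 0.13. The part of this in the changes of single genes was not tested. Of the 35, 13 fell and 7 rose, against 29.7% and 20.0% of all genes (median -0.41; in TPM none rose and 21 fell of 32, median -0.72); without replicate 1, 15 fell and 7 rose, with a median of -0.80. Without 36 h replicate 2 the number that fell was 6, and without 48 h replicate 1 it was 7. Vegfa, the vessel growth factor, rose by 1.25 ± 0.32 and Ddit4 by 1.13 ± 0.27. Of 24 glycolysis and pentose phosphate genes 11 fell and 3 rose (median -0.61; in TPM none rose and 18 fell of 23, median -0.93); without 36 h replicate 2, 7 fell, and without 48 h replicate 1, 6 fell. Pklr, the red cell pyruvate kinase, had 408, 421 and 432 CPM at 36 h and 104, 126 and 153 CPM at 48 h, with replicates close together, and changed by -1.72 ± 0.12 (adjusted p = 3.89e-09; ENSMUSG00000041237.12, GRCm38 chromosome 3, 89136142 to 89146784, plus strand). Ldha and Tpi1 changed by -1.57 ± 0.33 and -1.56 ± 0.40, while Bpgm, which makes the regulator of oxygen release from hemoglobin, rose by 0.68 ± 0.10.

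Several of the largest changes lay outside these lists. Tbata had 5.32, 6.40 and 1.59 CPM at 36 h and 139, 122 and 12.9 CPM at 48 h and rose by 4.30 ± 0.65 (adjusted p = 1.46e-05; ENSMUSG00000020096.20, GRCm38 chromosome 10, 61171954 to 61188841, plus strand). Nefh, the heavy neurofilament chain, had 18.2, 23.0 and 17.9 CPM at 36 h and 145, 176 and 134 CPM at 48 h and rose by 2.94 ± 0.12 (adjusted p = 3.89e-12; ENSMUSG00000020396.8, GRCm38 chromosome 11, 4938754 to 4948064, minus strand), after -0.38 from 24 to 36 h, a difference of 3.32 (adjusted p = 2.82e-10). Its replicates lay close together at both times. Fam180a had 3.18, 2.70 and 0.669 CPM at 36 h and 27.8, 16.9 and 5.36 CPM at 48 h and rose by 2.89 ± 0.42. Among falls, the sialyltransferase St3gal4 changed by -1.74 ± 0.17, Aarsd1 by -1.72 ± 0.32, the disulfide isomerase Pdia2 by -1.70 ± 0.37 (-2.70 without 48 h replicate 3), Crip1 by -1.67 ± 0.17 and the collagen Col18a1 by -1.65 ± 0.24. Col18a1 had 149, 76.4 and 116 CPM at 36 h and 42.0, 31.7 and 34.7 CPM at 48 h, so it was high in all 36 h libraries, unlike the stromal markers found in replicate 1 alone; its difference from the step before was -2.69 (adjusted p = 1.08e-05).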

How the data were processed

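RNA-seq of MEDEP cells in 7 groups, made up of 6 times from 0 to 72 h and a succinyl acetone arm at 12 h, was deposited as gene tables of estimated counts and TPM. The submitters' processing notes name kallisto, STAR 2.5.3a, DESeq2, GRCm38.p5 and mm10 with no role given, so how the estimated counts deposited by the authors were made is not stated in the sources used here. Of all deposited count values 78.5% were whole (tolerance 1e-06), and they were rounded. TPM values, scaled to library total and transcript length by the authors, gave the changes called TPM in the text, fitted with limma as log2(TPM + 1), which understates changes of low genes, where the mean over libraries was 1 TPM or more. They also gave levels per length and shares of the TPM total. Gene positions are from GENCODE M21, which held 12351 of the 12360 tested IDs.

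The 2-sided quasi-likelihood test of edgeR 4.0.16 (R 4.3.3) was fitted to all 21 libraries, so that they share 1 estimate of the spread, with TMM scaling and filterByExpr (minimum count 10). Adjusted p-values are Benjamini-Hochberg over all genes tested, and a gene is called at 0.05 or less. SE is the log2 change over the square root of F. CPM are per TMM-scaled library size. The comparison with the steps before and after used the contrasts of 2 steps in the same fit. The biological coefficient of variation was 11.6%. Replicates of a time differed beyond sampling noise, with a chi-square per gene of 19.8 to 161, so none was counted as a copy. The scripts were tested on simulated data.

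Genes named are the 12 largest rises and 12 largest falls with a mean count of at least 100, no overlap between times and the same call without 36 h replicate 1, up to 4 called members per direction of each list (mean count at least 30), and a fixed panel; some genes the rule names are not reported here. The members and the 29 lists were chosen with earlier results of these data known, and give no independent support. Genes with values named outside the rule are Cdkn1c, Fn1, Igf2, the interferon-stimulated genes not called or most abundant by TPM, and the interferon genes. Alternatives were DESeq2 1.42.0 size factors and its Wald test, no count filter, library sizes without globins, a replicate block, only the libraries compared, limma 3.58.1 on TPM with other pseudocounts and filters, a minimum fold of 2, and the omission of each library in turn. Summing globin paralogs was added after seeing the data. Shares were tested with SciPy 1.17.1.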

Additional observations from a re-analysis of the deposited data

How the results depend on the processing

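Whether most genes fell or as many rose is set by the scale. DESeq2's size factors gave 3197 genes higher and 2961 lower, and its Wald test 3314 and 3047. In limma, log2(TPM + 1) gave 246 higher and 5954 lower, log2(TPM + 0.1) gave 246 and 6277, and all genes above 0 TPM in 3 libraries gave 256 and 5707. Depth limits the low genes: the listed interferon transcripts and the 7 untested interferon-stimulated genes cannot be read. No setting separates less RNA per cell from fewer cells.

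Against the step before, 7851 genes differed in log2(TPM + 1), 7489 more positive and 362 more negative. With a pseudocount of 0.1 these were 7047 and 344, and with all genes above 0 in 3 libraries 8172 differed, 7737 and 435. Against the step after, 838 differed in log2(TPM + 1), 537 more positive and 301 more negative. With a pseudocount of 0.1 there were 1015, 651 and 364, and with all genes above 0 in 3 libraries 581, 380 and 201. A fit to only the libraries compared gave 1622, 1054 and 568 for the step after. A fold of at least 2 left 1637 changed genes (708 higher, 929 lower), 3050 that differed from the step before (1125 more positive, 1925 more negative) and 1656 from the step after (933 and 723). As shares of the TPM total, globins gained 6.82 percentage points and the mitochondrial genome changed by -1.39.

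Leaving out 1 library at a time gave 5340 to 6095 changed genes (2015 to 2543 higher, 3325 to 3616 lower). It gave 4064 to 5361 that differed from the step before (1511 to 2205 more positive, 2553 to 3156 more negative) and 2993 to 3885 from the step after (1862 to 2358 and 1131 to 1527). The globin share then rose by 4.33 to 5.70 percentage points and the mitochondrial share changed by -0.661 to -0.436.

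The direction of 14 named genes was the opposite in TPM with both pseudocounts and both filters; the values with pseudocounts 1 and 0.1 were -0.0741 and -0.0749 for Incenp, -0.110 and -0.112 for Cdkn1b, -0.308 and -0.313 for Insig1, -0.390 and -0.410 for Ggps1, and -0.023 and -0.023 for Rpl10. They were -0.390 and -0.390 for mt-Co1, -0.171 and -0.373 for Kit, -0.125 and -0.129 for Epor, -0.516 and -0.516 for Slc4a1, and -0.218 and -0.220 for Bcl2l1. They were -0.358 and -0.360 for Bnip3l, -0.322 and -0.323 for Xpo7, -0.372 and -0.375 for Gata1, and -0.349 and -0.349 for Hba-a2. The cause was not tested beyond the change of scale itself.

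The replicate numbers share only a number in the labels. Deviations from the group mean correlated between 36 h and 48 h libraries of the same number at 0.428, 0.0986 and 0.424 over the 8257 genes whose mean count reached 200. The lowest of the 3 was 0.0931 at a minimum of 100, 0.151 at 500 and 0.176 at 1000, so whether all 3 pass 0.1 depends on that minimum. At each minimum every library correlated best with its own number, which is a hint from the data and not the design. A replicate block gave 2586 genes higher and 3762 lower, and Bnip3l was called in it; it changed no other call of a named gene.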

Other observations

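Cell death genes were not described above. Of 26 tested members of the BCL2 family and the caspases 7 rose and 6 fell, against 20.0% and 29.7% of all genes (median log2 change 0.01; in TPM 3 rose and 15 fell of 22, median -0.50). Bbc3 (PUMA), which triggers death by binding BCL2 proteins, had 66.7, 85.5 and 37.7 CPM at 36 h and 304, 254 and 195 CPM at 48 h and rose by 1.98 ± 0.21 (SE, n = 3 against 3, adjusted p = 3.13e-07, edgeR). Bax, which opens the outer mitochondrial membrane, had 27.8, 27.5 and 19.1 CPM at 36 h and 92.1, 63.0 and 41.9 CPM at 48 h and rose by 1.40 ± 0.20 (adjusted p = 6.45e-06, edgeR). In both, the lowest 48 h library lay above the highest 36 h library. The caspase Casp12 rose by 1.28 ± 0.25, while Casp8, of death receptors, changed by -1.11 ± 0.16 and the caspase inhibitor Xiap by -0.53 ± 0.11. Bcl2l1 (BCL-XL), the survival factor of late erythroblasts, rose by 0.43 ± 0.13 and was -0.22 in TPM; it was not called without 36 h replicate 3 (adjusted p = 0.0604, edgeR). Bbc3 and Bax are also p53 targets, and of 21 such genes 7 rose and 5 fell (median log2 change 0.10; in TPM 3 rose and 8 fell of 18, median -0.17); without 48 h replicate 2, or with DESeq2's size factors, 3 fell. The rise of Bax was larger than from 24 to 36 h, with a difference of 1.38 (adjusted p = 0.0031, edgeR), and that of Bbc3 was smaller, with a difference of -1.38 (adjusted p = 0.00419, edgeR).

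Genes of protein breakdown are also given here. Of 45 genes of the proteasome and of ubiquitin conjugation 13 rose and 7 fell, against 20.0% and 29.7% of all genes (median log2 change 0.02; in TPM none rose and 31 fell of 45, median -0.61); with DESeq2's size factors 3 fell. Ube2o, which removes ribosomal proteins from maturing red cells, had 5189, 6848 and 4834 CPM at 36 h and 9414, 10101 and 9475 CPM at 48 h and rose by 0.78 ± 0.16. Ube2b rose by 0.72 ± 0.12, and the proteasome subunits Psmd14 and Psmc5 changed by -0.54 ± 0.08 and -0.45 ± 0.07.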
